A study of Mus musculus with 2 samples.

Results

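Genes of antigen presentation by class I and class II histocompatibility molecules were followed on 2 two-colour arrays of mouse mammary gland RNA. The 10 genes listed were B2m, H2-K1, H2-D1, Tap1 and Tap2 for class I, and H2-Aa, H2-Ab1, H2-Eb1, Cd74 and Ciita for class II. Every feature whose symbol in the platform annotation was one of these was taken, which gave 83 of 38976 features. They stood for 9 genes, with 75 features for B2m and 1 for each of the other 8, and H2-Eb1 was not analysed here. The genes were chosen by their ratios in this same comparison, H2-Aa having been positive on both arrays and B2m negative. Those values, and all others of the same comparison for the listed genes, are therefore descriptions and are used to support nothing.

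Each array compared glands of adult mice after 5 days of doxycycline. The het glands had the genotype GATA-3flox/+; WAP-rtTA-Cre and the null glands GATA-3flox/flox; WAP-rtTA-Cre. Both genotypes thus carried the transgene under the promoter of a milk protein gene, Wap, and both received the drug. By these genotypes the het glands kept a Gata3 allele that was not floxed. Both genotypes had a floxed allele, so neither is an unaltered control. Whether the floxed alleles were deleted was not measured here. Cy5 marked the het RNA and Cy3 the null RNA each time, with the dyes exchanged on 0 arrays, so a dye effect and a genotype effect cannot be told apart. The sources used here do not give which channel was divided by which. A positive log2 ratio means more RNA in het glands if Cy5 was the numerator and more in null glands if Cy3 was. Separate animals are not named in the labels, so the errors below cover only the difference between these arrays, which may be technical.

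Gata3, the floxed gene, had 1 feature, with log2 ratios of 1.60 on array 1 and 0.205 on array 2. It lay at percentile 97.4 of all features on array 1 and 71.9 on array 2. Whether its probe lies in the deleted part is not given, so this value checks neither the labels nor the sign. Ratios on array 1 were wider than on array 2, with an SD over all features of 0.67 against 0.44, and their medians were -0.004 and -0.03. Because the values are ratios, whether a gene's RNA was present in the gland at all cannot be read from them. In whole glands, fewer cells of a type and less RNA per cell cannot be told apart.

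Class I molecules are made of a heavy chain, such as those encoded by H2-K1 and H2-D1, bound to the invariant light chain beta-2 microglobulin, encoded by B2m. They show peptides from the cytosol to cytotoxic T cells, and the transporter formed by the Tap1 and Tap2 proteins carries these peptides into the endoplasmic reticulum. Class II molecules are heterodimers of an alpha and a beta chain. The invariant chain, encoded by Cd74, occupies their groove until endosomal proteases remove it, and the coactivator encoded by Ciita is required for transcription of the class II genes. In the mammary gland class II molecules are carried mainly by macrophages, dendritic cells and B cells, while most nucleated cells carry class I.

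Promoters of class I and class II genes are known to share a module of X and Y boxes, bound by RFX, CREB and NF-Y factors. RefSeq windows on GRCm38.p6 were matched for 6 of the 10 genes, and those of the genes with the most divergent ratios, H2-Aa and B2m, are shown with those of both class I heavy chains. Each run gives the 150 bases before an annotated start, written 5′ to 3′ on the strand of the gene. Of the 2 windows of H2-K1 the first is shown. Capitals mark matches on either strand to 5 patterns. TGACG is part of the cAMP response element and resembles X2 boxes, ATTGG is the core of the Y box, and CTGATTGG is a longer Y box that contains it. GGGATTCCC is the core of a kappa B site and GAAANNGAA that of an interferon-stimulated response element.
H2-Aa, chr17:34287824-34287973, minus strand: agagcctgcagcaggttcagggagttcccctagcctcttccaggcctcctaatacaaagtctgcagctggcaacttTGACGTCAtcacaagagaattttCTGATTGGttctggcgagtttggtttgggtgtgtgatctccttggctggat
B2m, chr2:122147537-122147686, plus strand: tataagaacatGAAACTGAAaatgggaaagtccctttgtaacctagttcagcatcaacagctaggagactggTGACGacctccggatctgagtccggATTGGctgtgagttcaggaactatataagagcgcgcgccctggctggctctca
H2-K1, chr17:34000348-34000497, minus strand: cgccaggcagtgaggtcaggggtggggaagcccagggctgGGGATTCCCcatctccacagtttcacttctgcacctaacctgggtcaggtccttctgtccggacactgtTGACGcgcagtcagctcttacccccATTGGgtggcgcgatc
H2-D1, chr17:35262944-35263093, plus strand: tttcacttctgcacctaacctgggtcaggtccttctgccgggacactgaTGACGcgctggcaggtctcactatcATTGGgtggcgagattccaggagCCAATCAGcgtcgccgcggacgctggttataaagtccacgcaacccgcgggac

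TGACG was followed by ATTGG on the same strand in all 4 of these windows, starting 25 bases further on in B2m, H2-K1 and H2-D1 and 26 bases further on in H2-Aa. TGACG occurs in 13.3% of all 32851 windows of this length, ATTGG in 24.5%, CTGATTGG in 3.16%, GAAANNGAA in 3.95% and GGGATTCCC in 0.14%. The pair at 25 or 26 bases, a spacing searched for after it was seen, was in 20 windows (0.0609%) of 19 genes. These include the 4 genes shown, from which the spacing was taken, and the class I relative H2-M3. Only 4 of the 19 have an H2 symbol. Nothing about the factors or the ratios is drawn from these matches. The Tap1 window held TGACG and no ATTGG, and that of H2-Eb1 held CTGATTGG and no TGACG.

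H2-Aa, the alpha chain of the class II molecule I-A, had the highest ratios of the listed genes. Its log2 ratio was 1.497 on array 1 and 0.985 on array 2, or 2.82-fold and 1.98-fold. The mean log2 ratio was 1.24 ± 0.36 (SD, n = 2). The H2-Aa feature stood at percentile 96.6 of all features on array 1 and 96.8 on array 2, so its place was alike on both although its ratio was not. No second feature annotated to H2-Aa was there to check it against.

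H2-Ab1 encodes the beta chain that pairs with the H2-Aa product. Its log2 ratio was -0.21 on array 1 and 0.05 on array 2, so its sign differed between the arrays. The ratio of H2-Aa exceeded that of H2-Ab1 by 1.70 on array 1 and by 0.94 on array 2, a mean difference of 1.32 ± 0.54 (SD, n = 2). Of the chains of one heterodimer, one lay near the upper end of the array and the other near 0.

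Cd74, the invariant chain, had log2 ratios of -0.12 on array 1 and -0.38 on array 2, with a mean of -0.25 ± 0.19 (SD, n = 2). H2-Aa lay above Cd74 by 1.61 on array 1 and 1.365 on array 2 on the log2 scale. Ciita, the class II coactivator, gave -0.28 on array 1 and 0.21 on array 2. Neither followed H2-Aa, and of the 4 measured class II genes H2-Aa alone was positive on both arrays, Cd74 alone was negative on both, and the signs of 2 differed.

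**Figure D1:**
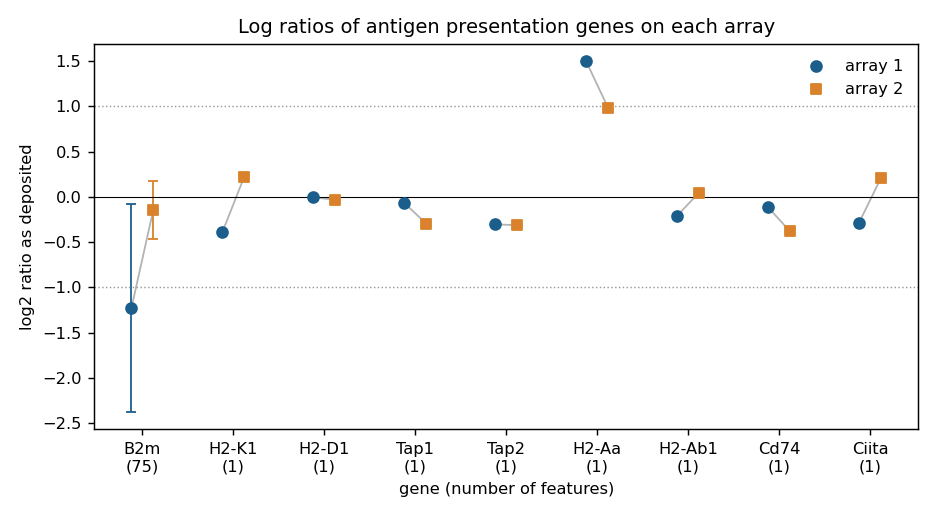
Log2 ratio as deposited (vertical axis) of each measured gene on array 1 (circles) and array 2 (squares), joined by a grey line; for B2m the points are means and the bars SDs over its 75 features, and dotted lines mark 2-fold. H2-Aa lies at 1.497 and 0.985, B2m at -1.23 and -0.14, and the other 7 genes between -0.39 and 0.22.

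Among the class I heavy chains, H2-D1 stood close to 0 on both arrays, at -0.005 and -0.03. H2-K1 had a log2 ratio of -0.39 on array 1 and 0.22 on array 2. The sign of H2-K1 thus differed between the arrays, and its mean was -0.08 ± 0.43 (SD, n = 2). These heavy chains belong to a family of near-identical genes, and whether their probes also bound RNA of relatives was not tested.

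The transporter genes were negative on both arrays. Tap2 gave -0.30 on array 1 and -0.31 on array 2, the closest pair of values among the listed genes. Tap1 gave -0.065 and -0.30. Tap1 lay 0.24 above Tap2 on array 1 and 0.02 above it on array 2, a mean difference of 0.13 ± 0.16 (SD, n = 2) that was within its own spread.

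B2m, the light chain shared by class I molecules, had a mean log2 ratio over its features of -1.23 on array 1 and -0.14 on array 2. The mean of both was -0.69 ± 0.77 (SD, n = 2), an error larger than the mean itself. H2-K1 lay above B2m by 0.84 on array 1 and 0.37 on array 2, and H2-D1 by 1.22 and 0.11. The mean difference was 0.60 ± 0.33 for H2-K1 and 0.67 ± 0.78 for H2-D1 (SD, n = 2), so that for H2-D1 the spread exceeded the difference. Since the B2m ratio was one of the values that chose the genes, nothing is drawn from these differences.

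The 75 B2m features carried 1 accession, and whether one probe was spotted repeatedly or several probes were used is not stated in those sources. On array 1 their log2 ratios ran from -3.14 to 2.13, with quartiles at -2.14 and -0.58 and a median of -1.42. On array 2 they ran from -0.89 to 0.85, with quartiles at -0.34 and 0.04 and a median of -0.14. Features of one gene on one array thus spanned from 8.81-fold negative to 4.38-fold positive.

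On array 1, 48 of the 75 features were at least 2-fold negative, 3 at least 2-fold positive and 24 less than 2-fold from 0. Over all features, 4.18% were at least 2-fold negative and 9.14% at least 2-fold positive on that array. On array 2 all 75 B2m features lay less than 2-fold from 0, where 0.672% of all features were at least 2-fold negative and 2.94% positive. The large negative B2m ratios were thus those of array 1.

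Of the B2m features 43 were negative on both arrays, where 34.8% of all features were. A further 6 were positive on both, and 26 changed sign or stood at 0 on array 2, where 30.7% of all features were positive on both. The 22 features at least 4-fold negative on array 1 had a median of -0.31 on array 2, from -0.66 to 0.45. The 12 features that were positive on array 1 had a median of -0.03 on array 2, from -0.53 to 0.65. Across the 75 features the arrays had a Pearson r of 0.270, given as a description of features that share their RNA and their slides.

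**Figure D2:**
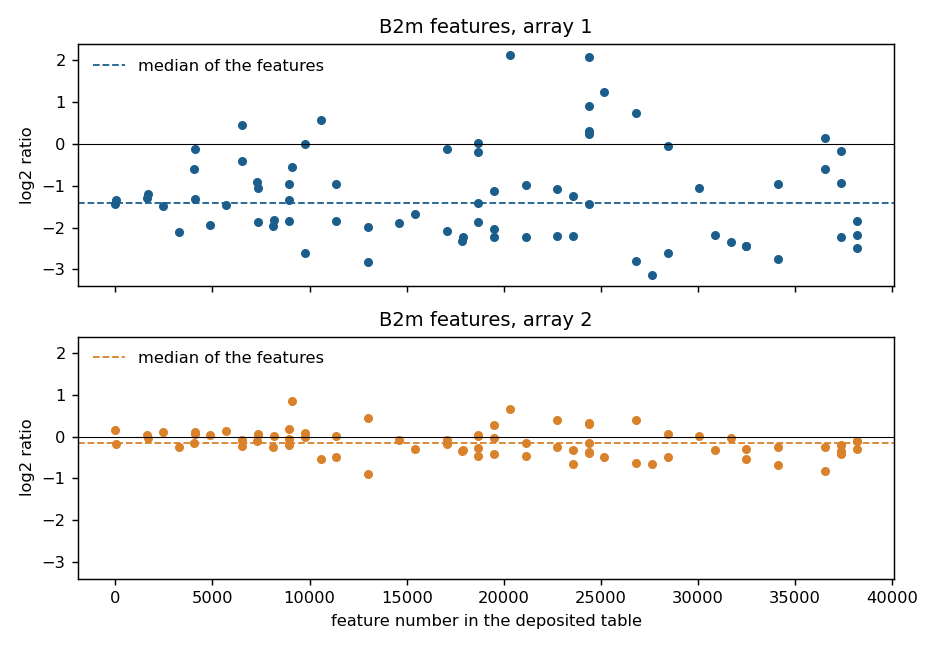
Log2 ratio (vertical axis) of each of the 75 B2m features against the feature's number in the deposited table (horizontal axis), for array 1 above and array 2 below, with the median of each array dashed. On array 1 the features run from -3.14 to 2.13 and on array 2 from -0.89 to 0.85.

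The B2m features recur at regular places in the table. Cut into 48 equal runs of 812 features, a division chosen after the values were seen, the table held B2m in 38 runs, and 74 of the 75 features were among the first 32 places of a run. In the 25 runs with more than 1 B2m feature, the range within the run on array 1 had a median of 1.11 and went from 0.007 to 3.54. In run 34 the 2 B2m features gave -2.81 and 0.73 on array 1. Features of B2m close together in the table could therefore differ widely. The median over all features of a run stayed between -0.03 and 0.04 on array 1.

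In the first part of the table, up to run 24, 39 B2m features had a median of -1.42 on array 1 with an SD of 0.84. In the rest, 36 had a median of -1.35 with an SD of 1.41. On array 2 the medians were -0.07 and -0.28. The medians on array 1 were alike in both parts of the table, and the scatter was wider in the later one.

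B2m was set beside the 12 other genes with 20 or more features, most of them in the same first places of the runs. On array 1 the SD over B2m features was 1.15, above each of the others, which ranged from 0.30 for the ribosomal protein gene Rpl13a to 0.77 for Actb, the cytoplasmic beta-actin. On array 2 the SD for B2m was 0.32, number 4 of the 13 from the widest, between extremes of 0.21 and 0.45. The ratio of the SD on array 1 to that on array 2 was 3.58 for B2m and from 1.05 to 2.85 for the others. B2m thus had the widest spread of the 13 on array 1 and not on array 2.

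The B2m mean was also the lowest of the 13 on array 1 and number 5 from the lowest on array 2. Gapdh, a glycolytic enzyme, came next on array 1, at -1.16, and was at -0.43 on array 2. Of its 30 features 25 were negative on both arrays, against 43 of 75 for B2m. Gsn, which encodes the actin-severing protein gelsolin, had means of -0.70 and 0.007, and Actb -0.44 and 0.15. Like B2m, these genes were negative on array 1 and lay closer to 0 or above it on array 2.

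Other repeated genes had closer means on both arrays. Ywhaz, a 14-3-3 protein, was at 0.73 and 0.70, and the elongation factor gene Eef2 at -0.48 and -0.60. Lrp1, a lipoprotein receptor, was at -0.24 and -0.22, the talin gene Tln1 at -0.14 and -0.13, Rpn2, of the oligosaccharyltransferase complex, at -0.12 and -0.10, and Rpl13a at -0.08 and -0.16. Hprt, of purine salvage, was at 0.006 and 0.10, Sdha, of succinate dehydrogenase, at 0.10 and 0.04, and Tbp, the TATA-binding protein, at 0.11 and -0.08. The difference of -1.08 between arrays for B2m was larger in size than that of any of the 12 other genes.

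**Figure D3:**
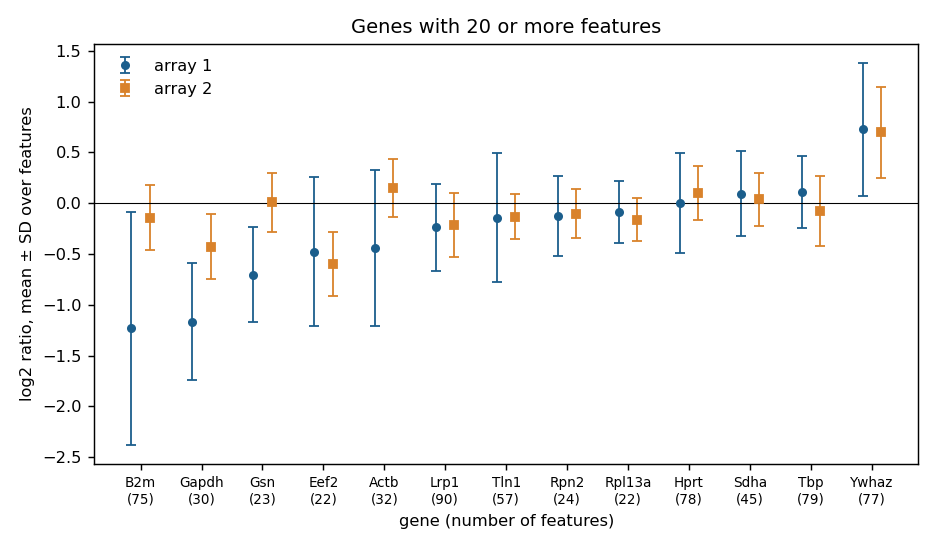
Mean log2 ratio (vertical axis) of the 13 genes with 20 or more features, ordered by their mean on array 1, for array 1 (circles) and array 2 (squares), with bars for the SD over features. B2m has the lowest mean on array 1, at -1.23, and the longest bar, 1.15, while on array 2 it lies at -0.14 with a bar of 0.32.

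In limma's test over all features, 0 of the 83 features passed an adjusted p of 0.05, and 0% of all features did. At an unadjusted p under 0.05 there were 35 of the 83 features, 31 of them negative B2m features, where 22% of all features lay under it. A distance of 2-fold or more from 0 on each array was reached by 0 of 83 features in either direction, against 2.14% of all features positive and 0.254% negative. Averaging the features of each gene first, 1 of the 9 genes passed, H2-Aa with a positive ratio, where 8.26% of all genes passed, 7.28% with positive ratios. Since this comparison chose the genes, nothing is read from these counts.

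Other genes of the pathway were taken from 7 lists by role, of which 63 of 74 genes were measured. By limma on gene-level ratios 4 of the 63 passed with positive ratios and 0 with negative ones, where 7.28% and 0.983% of all genes passed. At gene level 14 were positive on both arrays and 26 negative on both, with 23 whose signs differed, where 33.7% of all genes were positive and 34.1% negative on both. The median of their means was -0.07, beside -0.02 over all genes. The 4 that passed were Canx, Ctss, Ctsl and Irf2, in 3 of the lists. After quantile normalization of the arrays 7 of the 63 passed with positive and 6 with negative ratios, where 12.5% and 3.41% of all genes did. With equal median absolute deviation there were 7 and 4, where 11.5% and 2.17% of all genes passed. With limma's treat against a log2 ratio of 0.5 the count was 0 both in the lists and over all genes.

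Class I heavy chains and their relatives had 18 of 22 genes measured, of which 0 passed, 8 were negative on both arrays, 3 were positive and in 7 the signs differed. Over all genes 8.26% passed, 34.1% were negative on both arrays and 33.7% positive. The list had a median of -0.37 on array 1 and -0.07 on array 2. H2-Q6, a nonclassical heavy chain gene of the Q region, had log2 ratios of -1.57 on array 1 and -0.28 on array 2, averaged over 2 features. H2-Q7 gave -1.19 and -0.42, and H2-Q1 -0.67 and -0.26. H2-M10.1, of the M region, gave -0.48 and -0.73. H2-Q6 and H2-Q7 were thus more negative on array 1 than on array 2, as B2m was. H2-K1 was also lower on array 1, at -0.39 against 0.22, and ratios on array 1 were wider over all features. H2-K1 and H2-D1 were at most 1.31-fold from 0 on both arrays.

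Both of these Q genes had 2 features. The 2 features of H2-Q6 gave -1.42 and -1.71 on array 1 and -0.235 and -0.33 on array 2. Those of H2-Q7 gave -1.12 and -1.26 on array 1, and -0.28 and -0.555 on array 2. All 4 were negative on both arrays and lower on array 1. These genes are close paralogs, so their probes may not tell them apart, which was not tested.

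Of the proteins that load class I molecules, all 6 were measured, with 3 negative on both arrays and 1 positive. Beside them, 34.1% of all genes were negative and 33.7% positive on both. Canx encodes calnexin, a chaperone that binds new heavy chains, and passed with log2 ratios of 1.31 on array 1 and 0.91 on array 2 (limma, gene-level adjusted p = 0.0336). Pdia3, the thiol oxidoreductase of the loading complex, gave -0.81 and -0.545. Erap1, which trims peptides in the endoplasmic reticulum, gave -0.415 and -0.40, and Tapbp, the bridge between transporter and heavy chain, -0.11 and -0.19. Canx stood on the opposite side of 0 from Pdia3, Erap1 and Tapbp. In the 2 other genes of the list the signs differed between the arrays. Canx alone of the 6 passed, where 8.26% of all genes passed.

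For the proteasome list, which holds the interferon-induced subunits, their constitutive counterparts and the activator subunits, 8 of 9 genes were measured. Of these 5 were negative on both arrays, 0 positive, and in 3 the signs differed, where 34.1% of all genes were negative and 33.7% positive on both. In this list 0 passed, where 8.26% of all genes did. Psme2, an activator subunit, gave -0.34 and -0.52, and its partner Psme1 -0.33 and -0.155 on arrays 1 and 2. Psmb9, an induced catalytic subunit whose gene lies next to Tap1, gave -0.35 and -0.365. The constitutive subunit gene Psmb5 gave -0.02 and -0.12. These 4 were named for keeping one sign, and 0 genes of the list were positive on both arrays, so their negative sign followed from that choice. All 4 lay nearer to 0 than 2-fold.

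Class II accessory chains had 4 of 7 genes measured and 0 passed, where 8.26% of all genes did. H2-DMb1, a beta chain of the DM molecule that exchanges peptides on class II, gave 0.62 on array 1 and 0.43 on array 2. H2-DMb2, the other DM beta chain, gave -0.04 and -0.02. H2-Oa and H2-Ob, the chains of the DM inhibitor DO, gave 0.45 and 0.025 for the first and -0.19 and 0.03 for the second. On both arrays 2 of the 4, H2-DMb1 and H2-Oa, were thus positive and 1 negative, where 33.7% and 34.1% of all genes were. On array 2 H2-Oa, H2-Ob and H2-DMb2 lay within 0.03 of 0.

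Among genes of endosomal proteolysis, which degrades Cd74 and prepares peptides, all 8 were measured and 2 passed with positive ratios, where 7.28% of all genes did. Ctss, cathepsin S, the main protease of the last step of invariant chain removal in B cells and dendritic cells, gave 1.64 on array 1 and 1.26 on array 2 (limma, gene-level adjusted p = 0.0336). Ctsl, cathepsin L, which acts on the invariant chain in thymic epithelium, gave 0.77 and 0.85 (adjusted p = 0.0423). Cst3, the cysteine protease inhibitor cystatin C, gave -0.67 and -0.84, and Sppl2a, which cleaves the remaining membrane stub of Cd74, 0.74 and 0.54. Of the list 3 genes were positive and 3 negative on both arrays, where 33.7% and 34.1% of all genes were. The negative genes included the cathepsins Ctsb (-0.63 and -0.14) and Ctsd (-0.65 and -0.63), named after their values were seen. Cathepsins thus stood on both sides of 0.

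Among the regulators, 12 of 15 genes were measured and 1 passed, where 8.26% of all genes passed. On both arrays 3 were positive and 3 negative, where 33.7% and 34.1% of all genes were, and in 6 the signs differed. Irf2, an interferon regulatory factor, gave 1.56 on array 1 and 1.05 on array 2 (limma, gene-level adjusted p = 0.0336). Nfyc, a subunit of the NF-Y factor that binds the Y box, gave 0.91 and 0.55, and Rfx5, the DNA-binding subunit of RFX, 0.16 and 0.51. The other subunits of these factors did not share their sign, and were named after their values were seen. Of NF-Y, Nfya gave -0.06 and 0.01, and Nfyb 0.24 and -0.06. Of RFX, Rfxap gave 0.23 and -0.22, and Rfxank -0.13 and -0.06. Kat2b, a histone acetyltransferase, gave -0.03 and -0.23. The regulators had a median of -0.02 on array 1 and 0.04 on array 2.

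The costimulation list had all 7 genes measured and 0 passed, where 8.26% of all genes did. On both arrays 2 were positive and 3 negative, where 33.7% and 34.1% of all genes were. Cd86, a ligand of CD28, gave 0.88 on array 1 and 0.52 on array 2. Icosl, the ligand of ICOS, gave -1.28 and -0.12. Cd40, the receptor through which T cells activate presenting cells, gave -0.39 and -0.09, and Cd83, a marker of mature dendritic cells, -0.12 and -0.11.

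**Figure D4:**
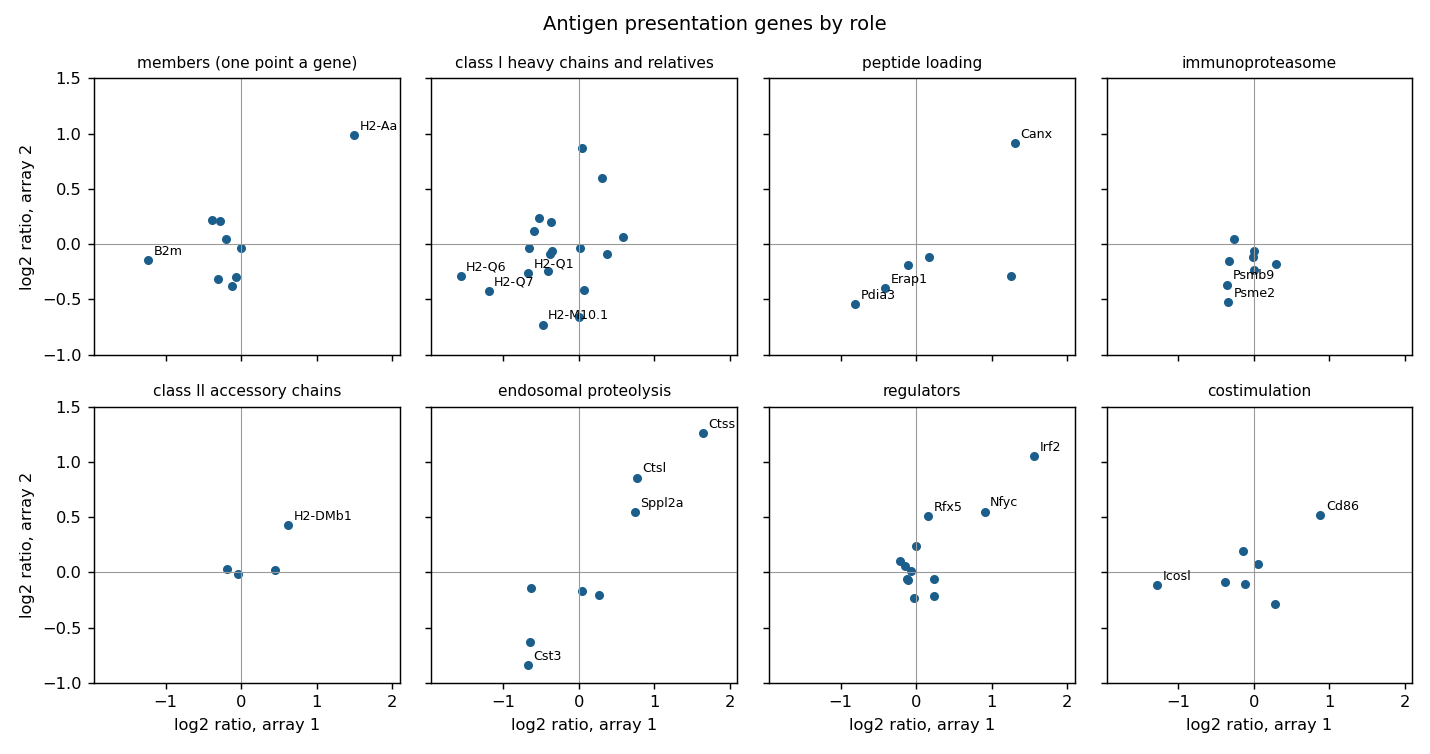
Log2 ratio on array 1 (horizontal axis) against that on array 2 (vertical axis), a point for each measured gene, in a panel for the listed genes and in a panel for each of the 7 lists by role. H2-Aa, Canx, Ctss and Irf2 lie at the upper right, while B2m, H2-Q6 and H2-Q7 lie at the left, more negative on array 1 than on array 2.

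Markers of the cells that carry class II molecules did not share the position of H2-Aa as lists. Of 8 measured macrophage and myeloid markers, 2 were positive and 4 negative on both arrays, with a median of -0.47 on array 1 and -0.03 on array 2. Beside them, 33.7% of all genes were positive and 34.1% negative on both. Adgre1, a surface receptor of macrophages, gave 1.18 and 0.61, while the integrin gene Itgam gave -0.54 and -0.77, the endotoxin coreceptor gene Cd14 -0.57 and -0.68, and the Fc receptor gene Fcgr1 -0.47 and -0.14. None of the 8 passed at gene level, where 8.26% of all genes did. Their part in the H2-Aa ratio was not tested.

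Of 10 dendritic cell markers 2 were positive and 3 negative on both arrays, and 0 passed. Cd209a, a lectin, gave 0.49 and 0.40, Xcr1, a chemokine receptor, -0.14 and -1.21, the transcription factor gene Batf3 -0.39 and -0.19, and Siglech 0.10 and 0.29. Of 7 measured B cell markers 0 were positive and 2 negative on both, and 0 passed. These 2 were Cr2, a complement receptor, at -1.08 and -0.03, and Cd79b, a chain of the antigen receptor complex, at -0.48 and -0.255. In the other 5 B cell markers the signs differed. Over all genes 33.7% were positive and 34.1% negative on both arrays, and 8.26% passed. The part of these cells in the H2-Aa ratio was not tested.

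Of 5 measured T cell markers 1 was positive and 2 negative on both arrays, with 2 whose signs differed. Cd3g, a chain of the T cell receptor complex, alone passed, at 1.105 and 0.68 (limma, gene-level adjusted p = 0.0428), where 7.28% of all genes passed with positive ratios. Cd3e, another chain of that complex, gave -0.53 and -0.17, and Cd247 -0.76 and -0.17. A further chain, Cd3d, named after its values were seen, gave -0.01 and 0.12. Of 7 markers of all leukocytes 3 were positive and 2 negative on both arrays, and 0 passed. For both lists, the shares over all genes were 33.7% positive and 34.1% negative on both arrays, and 8.26% passed. Laptm5 gave -0.80 and -0.62, Coro1a -0.32 and -0.38, Lcp1 0.14 and 0.48, and Cd53 0.22 and 0.38. Cd3g and Cd3e, chains of one receptor complex, thus stood on opposite sides of 0, while the signs of Cd3d differed between the arrays.

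Of the 10 markers of mammary epithelium, the labelled tissue's own cells, 6 were negative and 2 positive on both arrays. The shares over all genes were 34.1% negative and 33.7% positive on both. The basal keratin gene Krt5 alone passed, with ratios of -1.31 and -0.62 (limma, gene-level adjusted p = 0.0494), where 0.983% of all genes passed with negative ratios. Its partner Krt14 gave 1.10 and 0.51, and the luminal keratin genes Krt8 and Krt18 gave -0.81 and -0.44, and -0.89 and -0.35. The median of this list was -0.27 on array 1 and -0.02 on array 2, and its part in the class I values was not tested.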

How the data were processed

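The authors' deposited values, read here as log2 values, are log ratios between the channels of an array after lowess correction by print-tip group in Acuity 4.0, per the labels' design text. The sources used here do not give the log base, numerator, centring, background correction or spot filters, and another base would rescale every value. Each of the 38976 features had 2 values; intensities were not used here, so precision is limited by the number of arrays. Symbols were present for 22973 features (1 each, 0 with several) and absent for 16003, and Entrez IDs tied all 22973 to RefSeq GRCm38.p6 names of 15056 genes.

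The test against 0 used limma 3.58.1 in R 4.3.3 (intercept only, default prior, two-sided, Benjamini-Hochberg adjustment over all features or all genes, threshold 0.05), left 1 residual degree of freedom and was tested on simulated data. A gene's value is the mean over its features. The members, lists and alternatives (scaling, filters, prior, threshold, unit tested) were chosen with earlier results of these data known. Named genes are all listed genes, every gene with 20 or more features and, from each list, up to 4 genes that kept one sign on the arrays, by absolute mean; lists with 4 or fewer measured genes are given whole. Ctsb, Ctsd, Nfya, Nfyb, Rfxap, Rfxank, Cd3d and the genes of the closing section were chosen after their values were seen. Figures used matplotlib 3.10.9.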

Additional observations from a re-analysis of the deposited data

How the results depend on the processing

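Counts of calls depended on the scaling of the arrays. Over all features, the number past the limma threshold went from 0 to 2724 with each array's median subtracted, 5014 with equal median absolute deviation, 5121 after quantile normalization, 7452 when features whose arrays differed by more than 1 were dropped, 4929 at an adjusted p of 0.1 and 1244 for genes in place of features. The count of 0 among the 83 antigen presentation features became 2, 14, 20, 10 (of 32 kept), 11 and 1 (of 9 genes) under the same settings in that order, and the count of 4 other pathway genes became 7, 11, 13, 13 and 11 under the first 5 of them and 0 with limma's treat against 0.5. Over all genes the gene-level share of 8.26% became 11.9%, 13.6%, 15.9%, 19.5%, 14% and 0% in that order, the filter on discordant features leaving 60 pathway genes. The lowest adjusted p over features was 0.0512, just above the threshold, and the drop by construction removes features with a wide spread; otherwise the cause was not tested. A robust prior changed none of these 3 counts. Over 5 alternatives each, 43 of 45 member ratios kept their sign, Ciita being the exception (lowest -0.04, highest 0.03). For the genes with 1 feature, the median over features and the filter on discordant features left the value as it was. For these genes only the 3 scalings could change it. Of the 45, 3 moved by more than the spread between arrays, all of them Tap2, which went from -0.31 to between -0.32 and -0.29 under the 3 scalings and whose arrays differed by 0.011. H2-Aa stayed between 1.24 and 1.26 and B2m between -0.78 and -0.24. B2m was at its value nearest 0 when discordant features were dropped. With 1 array left out, B2m was -1.23 or -0.14 and H2-Aa 0.985 or 1.497. The SD over B2m features stayed between 0.89 and 1.15 on array 1 and between 0.32 and 0.41 on array 2. No paired analysis was possible because the arrays form 1 group, with no other group of samples to block against; the genotypes are already paired within each array by the ratio.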

Other observations

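Some histocompatibility genes lay outside the lists above and were looked at after their values were seen. H2-M1, a class I-like gene of the M region, gave log2 ratios of 1.75 on array 1 and 0.76 on the other, and H2-M10.6 gave 0.81 and 0.72, while H2-M10.4 gave -0.75 and 0.61. H2-Q8 gave -0.83 and -0.35. With it, all 6 measured Q-region genes were negative on both arrays, with a median of -0.75 on array 1 and -0.27 on array 2, where 34.1% of all genes were negative on both. Of the 9 measured M-region genes 5 were positive on both arrays and 1 was negative on both, with medians of 0.31 and 0.06. Of the 5 measured T-region genes 1 was negative on both and in 4 the signs differed. These groups by region were formed after the values were seen, so nothing is drawn from their contrast.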
